A study of Mus musculus with 3 samples.

Results

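Genes of DNA replication and of the G1/S step of the cell cycle were followed in LSK cells of C57Bl/6 mouse fetal liver, taken at E14.5. LSK cells are sorted as negative for lineage markers and positive for Sca1 and c-Kit, and include the blood stem cells. The 10 genes were Mcm4, Rfc4, Pola2, Pold4, Dbf4, Cdca5, Rnaseh2c, Cdk6, Tfdp1 and E2f5, out of 1454 genes compared and 38205 gene identifiers listed. They were chosen by symbol, with earlier results of these data known, and not by a measured change. Groups were 1 library from embryos homozygous for a DNMT3B7 transgene, 1 from hemizygous embryos and 1 from wild-type (WT) embryos, each made from the RNA of cells pooled from 4 to 5 embryos. DNMT3B7 is a shortened version of DNMT3B, an enzyme that sets DNA methylation anew. The promoter that drives the transgene is not given in the sources used here. With 1 library per genotype there was no replicate check and no test, so every difference below is one between libraries, and its error covers counting only.

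Before a cell copies its DNA, the MCM helicase is loaded at origins and is switched on when the kinase Cdc7, bound to its partner Dbf4, phosphorylates it. DNA polymerase alpha then makes the primers, replication factor C loads the sliding clamp, and DNA polymerase delta extends the lagging strand. Entry into this phase is set by cyclin D with Cdk4 or Cdk6, which phosphorylate the retinoblastoma family and so free E2F factors, which bind DNA together with a DP partner such as Tfdp1. Fetal liver blood stem and progenitor cells are known to cycle, unlike most of their adult counterparts.

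Values could be read only for part of the genome. High values stood in runs in 10 segments that began at the starts of chromosomes. On chromosome 16 the segment held 500 of the 533 fitted genes and so nearly the whole chromosome. Of the 1454 genes compared, 825 lay on chromosome 16, so the shares and medians over all genes rest largely on it. Outside the segments, genes that all cells use mostly fell below a mean deposited FPKM of 200000, the cut for a high gene. Of constitutive genes left out of the fit of the segments, 16 of 16 inside were high against 10 of 273 outside. All 10 replication and G1/S genes lay inside: Pola2, Pold4, Cdca5 and Rnaseh2c on chromosome 19, Mcm4 and Rfc4 on chromosome 16, Dbf4 and Cdk6 on chromosome 5, Tfdp1 on chromosome 8 and E2f5 on chromosome 3. As these genes were chosen with earlier results of these data known, it is no result that all lay inside and had readable values. E2f5 and Dbf4 lay nearest to the end of a segment, with 5 and 8 fitted genes between them and it. The gate markers Kit and Ly6a, which encode c-Kit and Sca1, lay outside, where Ly6a was listed at 0 in all 3 libraries and Kit had values of 0.405, 0.731 and 0 in the homozygous, hemizygous and WT libraries, so the sort could not be checked on them. The estimated depth was about 2310000 fragments on listed genes in the homozygous, 3010000 in the hemizygous and 3030000 in the WT library when a gene was given its median transcript length, and about 4800000, 5930000 and 5690000 in the same order with the longest transcript. All values are rescaled FPKM, deposited FPKM divided by 1 constant for all 3 libraries, so that the 1657370, 1708140 and 1733920 deposited for Mcm4 became 390, 402 and 408. Mitochondrial mRNAs took 64.9% of the summed value of the genes compared in the homozygous, 72.1% in the hemizygous and 74.95% in the WT library.

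Sequence before the gene starts was searched for the E2F motif, which the choice of genes did not use. The motif was taken as TTTCCCGC, TTTCGCGC, TTTGCCGC or TTTGGCGC on either strand, in windows from 250 bases before to 50 bases after the start (RefSeq, GRCm38.p6). A window was listed for 8 of the 10 genes, without Mcm4 and E2f5, and 1 of the 8 held a match, that of Tfdp1. Of the other genes on lists of replication, nucleotide supply, G1/S and cohesion genes, 31 of 86 held one (36.0%), and of all 27025 genes listed with a window, 2.60% did. A match is only a run of letters and not a known site, and its absence says only that these letters are not in the window. The CCAAT box (CCAAT) and the GC box (GGGCGG), searched on both strands after the E2F matches had been seen, were in 1 and 5 of the 8 genes. The CCAAT box was in 58.1% of the other genes of those lists and 41.1% of all genes, and the GC box in 81.4% and 38.2%.

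The windows of Tfdp1, the 1 gene with an E2F match, and of Pold4, the gene with the largest difference between libraries as deposited, are shown. Capitals mark every E2F, CCAAT or GC box match on either strand, and none of them overlap in these windows. In Tfdp1 (chr8:13338501-13338800, plus strand, GRCm38.p6) the E2F match GCGCGAAA is the only one of 8 letters, lies 43 bases before the start and reads on the opposite strand, and the other 3 are GC boxes. A second listed start of Tfdp1 puts the same match 96 bases before it. In Pold4 (chr19:4231643-4231942, plus strand, GRCm38.p6) there are 2 CCAAT boxes and 3 GC boxes.
Tfdp1: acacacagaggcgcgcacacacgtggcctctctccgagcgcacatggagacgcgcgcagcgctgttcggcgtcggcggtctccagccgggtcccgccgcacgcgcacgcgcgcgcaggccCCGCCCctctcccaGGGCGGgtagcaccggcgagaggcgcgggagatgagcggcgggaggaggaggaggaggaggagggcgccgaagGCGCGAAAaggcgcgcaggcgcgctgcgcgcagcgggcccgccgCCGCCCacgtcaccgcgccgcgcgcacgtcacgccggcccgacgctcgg
Pold4: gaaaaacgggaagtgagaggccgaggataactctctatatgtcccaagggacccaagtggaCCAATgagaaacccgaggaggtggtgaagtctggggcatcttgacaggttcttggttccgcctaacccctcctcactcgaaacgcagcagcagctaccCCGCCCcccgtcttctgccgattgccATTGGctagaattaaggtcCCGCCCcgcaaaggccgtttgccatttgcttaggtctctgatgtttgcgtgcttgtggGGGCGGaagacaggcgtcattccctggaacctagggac

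All 10 genes were readily measured, and their order of abundance was almost the same in the 3 libraries. FPKM is per transcript length, so levels may be set side by side between genes. Rnaseh2c and Tfdp1 stood at the top and E2f5 at the bottom in every library. The median nuclear protein-coding gene among those compared that reached a value of 1 had 66.0 in the homozygous, 70.5 in the hemizygous and 69.2 in the WT library, which is about the level of E2f5. The other 9 genes lay above it in all 3 libraries. As the 10 genes were chosen with earlier results of these data known, their levels are no result about replication genes at large.

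**Figure D1:**
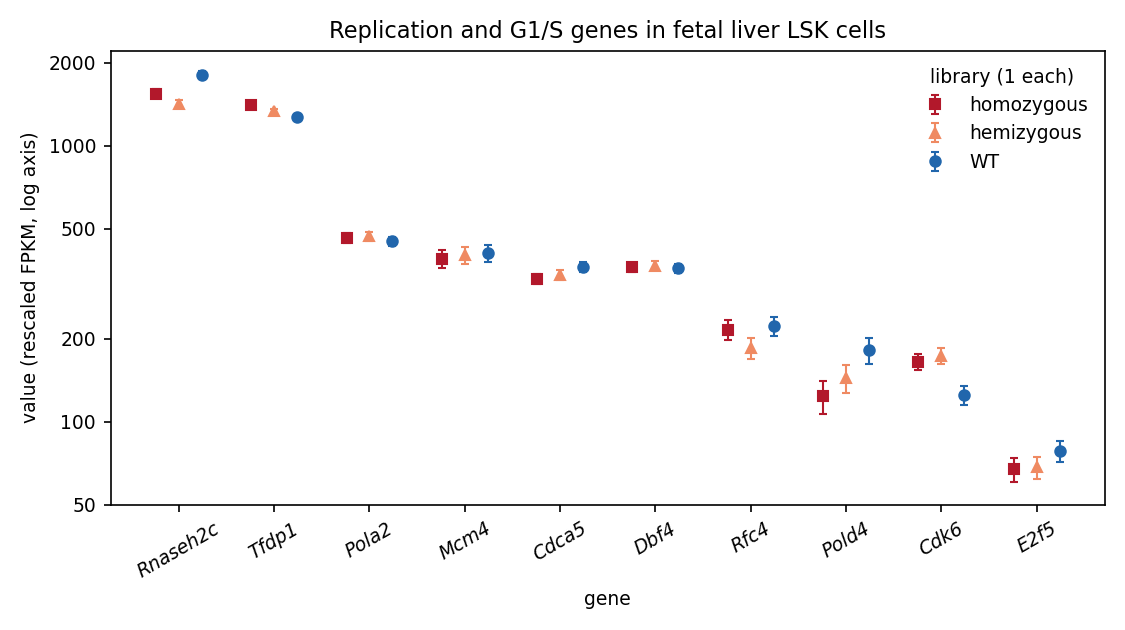
Value (rescaled FPKM, log axis) of the 10 genes in the homozygous, hemizygous and WT libraries; points are single libraries and bars are 95% counting intervals. Rnaseh2c lies highest at 1418 to 1810, E2f5 lowest at 67.2 to 78.1, and the largest gaps between libraries are those of Pold4 and Cdk6.

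Neighbours in this order could not always be told apart by counting error with the median transcript length. For Mcm4 that length is 658 bases against 3589 for the longest transcript, which would give narrower intervals, so its overlaps depend on this choice. In the homozygous library the intervals of Mcm4 (390) and Dbf4 (362) overlapped, and every other neighbouring pair was separate. In the hemizygous library those of Mcm4 (402) and Dbf4 (368), and of Rfc4 (185) and Cdk6 (173), overlapped. In the WT library it was those of Pola2 (450) and Mcm4 (408), and of Cdca5 (364) and Dbf4 (360). Pold4 ranked 9th in both transgenic libraries and 8th in WT, and Cdk6 ranked 8th in both transgenic libraries and 9th in WT, so this pair stood in the other order in WT.

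Between the libraries the genes differed little. None of the 10 differed by 2-fold in any comparison, where 4.49% of 957 genes measured did between homozygous and WT, 2.82% of 956 between hemizygous and WT, and 4.56% of 964 between homozygous and hemizygous. None reached 1.5-fold either as deposited, a size passed by 12.6%, 8.16% and 11.4% of the genes in the same order of comparisons. Low genes scatter more, and among the 522 genes with at least as many estimated fragments in a library as the lowest of the 10 genes had (211), called deep genes here, the share past 1.5-fold was 5.17%, 1.34% and 2.68%. The count of 0 of 10 therefore lies near that background. The median log2 ratio of the 10 genes was -0.054 for homozygous versus WT, -0.061 for hemizygous versus WT and -0.024 for homozygous versus hemizygous, beside medians of -0.044, 0.023 and -0.056 over all genes measured.

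**Figure D2:**
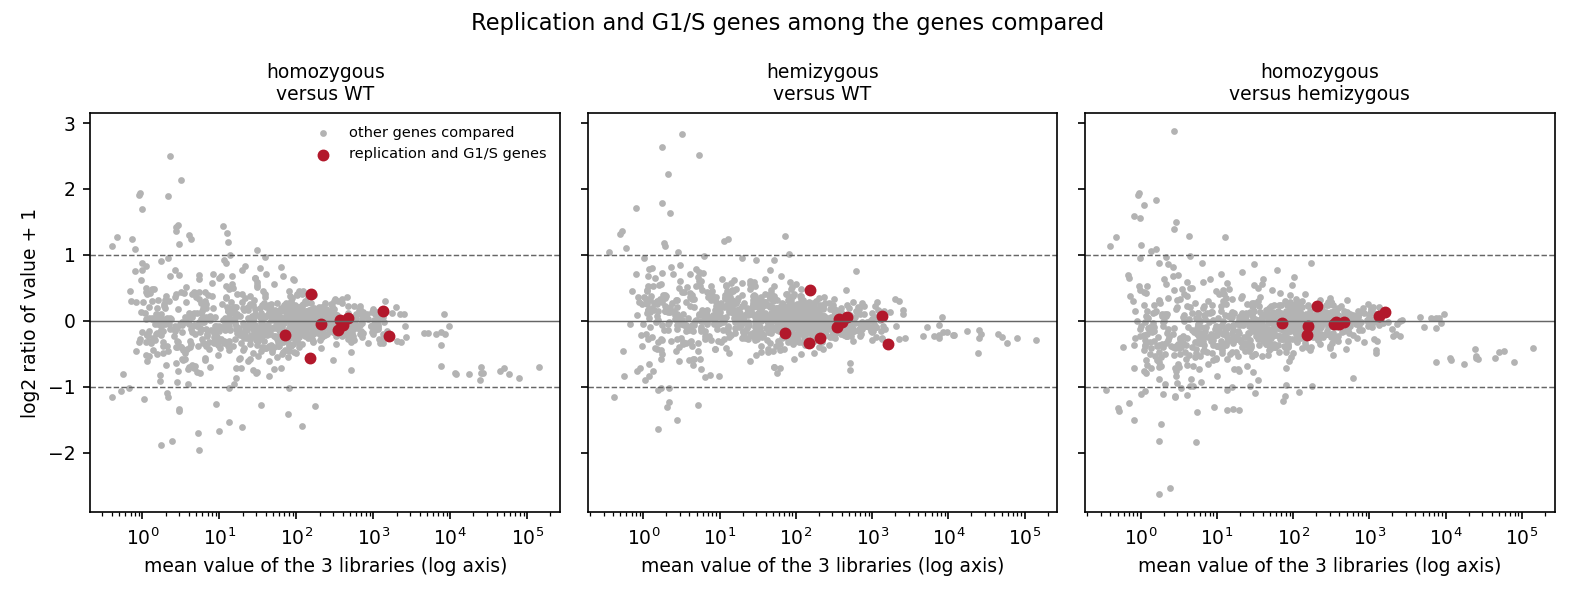
Log2 ratio of value + 1 against the mean value of the 3 libraries (log axis) for the genes compared (grey) and the 10 replication and G1/S genes (red), in 3 comparisons; dashed lines mark 2-fold. The red points lie between -0.56 and 0.47, inside the dashed lines in each panel.

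Cdk6, a cyclin D-dependent kinase with a known role in blood progenitors, was higher in both transgenic libraries. Its value was 165 in the homozygous and 173 in the hemizygous library, against 125 in the WT library. The transgenic libraries lay close together and both stood above WT. The log2 ratio was 0.40 (95% counting interval 0.25 to 0.55) for homozygous versus WT and 0.47 (0.33 to 0.62) for hemizygous versus WT, and both ratios share the WT library. Of the 522 deep genes, 8.62% differed by more in the first comparison and 3.83% in the second. Between the transgenic libraries the ratio was -0.070 (-0.21 to 0.066). It kept its sign against WT under every scaling tried, at 0.40 to 0.96 for homozygous and 0.45 to 0.68 for hemizygous.

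Tfdp1, the DP subunit that binds DNA together with E2F factors, had values of 1409 in the homozygous, 1337 in the hemizygous and 1273 in the WT library. The differences were small but the gene was deeply counted, with an estimated 8106, 8516 and 7702 fragments. On the log2 scale homozygous versus WT came to 0.15 ± 0.023 (counting SE), hemizygous versus WT to 0.071 ± 0.023 and homozygous versus hemizygous to 0.076 ± 0.022. It was above 0 under every scaling tried. Of the 50-base stretches of the Tfdp1 transcripts, 16.8% also occur in Gm7390, a processed pseudogene, so reads of the pair may not be told apart.

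E2f5, an E2F factor that works with the retinoblastoma relative p130 and is known mainly as a repressor, was the least abundant of the 10. It had 67.2 in the homozygous, 68.4 in the hemizygous and 78.1 in the WT library. Both transgenic values were below WT, with log2 ratios of -0.21 for homozygous (counting interval -0.40 to -0.025) and -0.19 for hemizygous (-0.37 to -0.0051). Scaling each library to the same sum turned the signs to 0.34 and 0.013. The ratio of Tfdp1 to E2f5 within a library does not depend on how libraries are scaled. It was 21.0 in the homozygous, 19.5 in the hemizygous and 16.3 in the WT library, a log2 difference of 0.36 ± 0.0996 for homozygous versus WT and 0.26 ± 0.097 for hemizygous versus WT (counting SE). The pair sets a gene above WT against a gene below it, so its ratio is a description. Of other pairs looked at, Dbf4 to Mcm4 gave 0.074 ± 0.086 and 0.052 ± 0.083 in the same order. Pola2 to Pold4 gave 0.60 ± 0.13 and 0.40 ± 0.13.

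Mcm4 and Dbf4, the genes among the 10 that act in origin firing, lay close to WT as deposited. Mcm4, a subunit of the MCM helicase, differed by log2 ratios of -0.065 (95% counting interval -0.21 to 0.084) for homozygous and -0.022 (-0.17 to 0.12) for hemizygous versus WT. Its values were 390 in the homozygous, 402 in the hemizygous and 408 in the WT library. Dbf4, the activator of Cdc7, had 362 in the homozygous, 368 in the hemizygous and 360 in the WT library, with log2 ratios to WT of 0.0086 (-0.068 to 0.086) and 0.030 (-0.045 to 0.10). The highest library stood 1.02-fold over the lowest for Dbf4 and 1.05-fold for Mcm4. The sign of Mcm4 turned under sum scaling, to 0.49 for homozygous versus WT and 0.18 for hemizygous versus WT, and under scaling by nuclear genes, to 0.0074 and 0.028.

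**Figure D3:**
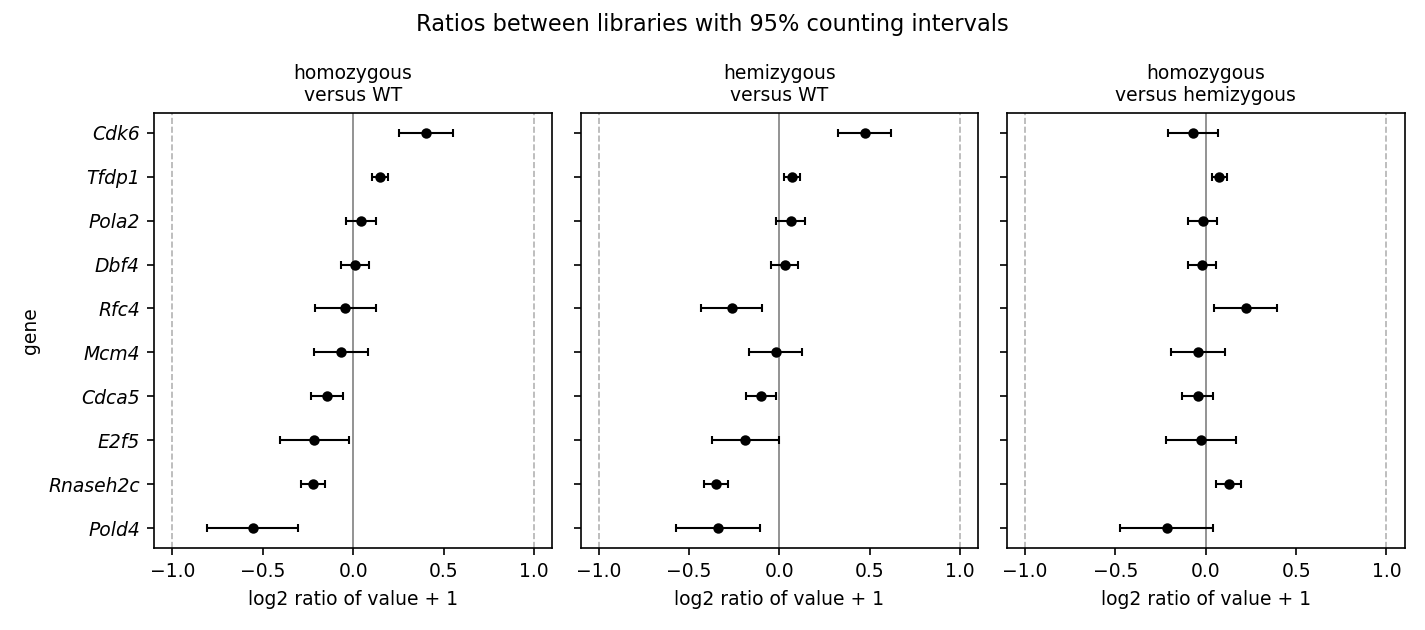
Log2 ratio of value + 1 for the 10 genes in 3 comparisons, with 95% counting intervals; dashed lines mark 2-fold and the genes are ordered by the homozygous versus WT ratio. Cdk6 lies right of 0 and Pold4 left of 0 in both comparisons with WT, and Dbf4 and Mcm4 lie at 0 within their intervals in all 3.

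Of the polymerase subunits, as deposited, Pold4 was lower in both transgenic libraries and Pola2 lay near WT. Pola2, the B subunit of DNA polymerase alpha, had 465 in the homozygous, 470 in the hemizygous and 450 in the WT library, and its log2 ratios to WT were 0.044 (95% counting interval -0.039 to 0.13) and 0.062 (-0.019 to 0.14). Under sum scaling these ratios of Pola2 were 0.60 and 0.27. Pold4, the smallest subunit of DNA polymerase delta, had 123 in the homozygous and 144 in the hemizygous library, against 182 in the WT library. Pold4 thus had the lowest value in the homozygous library, the middle in the hemizygous and the highest in WT. Its log2 ratio was -0.56 (-0.81 to -0.31) for homozygous versus WT, -0.34 (-0.57 to -0.11) for hemizygous versus WT and -0.22 (-0.48 to 0.043) for homozygous versus hemizygous. Of the 522 deep genes, 5.56% differed by more between homozygous and WT.

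Pold4 was the least deeply counted of the 10, and its difference rested on an estimated 211 fragments in the homozygous, 271 in the hemizygous and 327 in the WT library. With libraries scaled to the same sum, the homozygous versus WT ratio was 0.00015 and the homozygous versus hemizygous ratio 0.14, while the first was -0.52 under median-of-ratios scaling and -0.48 when the sum was taken over nuclear genes. Of its exon bases, 24.6% are also exon bases of AC109138.7, a protein-coding locus annotated on the same strand. Within libraries, the ratio of Cdk6 to Pold4 was 1.34 in the homozygous, 1.21 in the hemizygous and 0.684 in the WT library. This pair was picked because it differed most, so its ratio is a description.

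The clamp loader and primer removal genes were lowest in the hemizygous library. Rfc4, a subunit of replication factor C, had 216 in the homozygous, 185 in the hemizygous and 222 in the WT library. The homozygous library stood near WT, at a log2 ratio of -0.043 (95% counting interval -0.21 to 0.12), and the hemizygous library below it, at -0.26 (-0.43 to -0.094). Under sum scaling these ratios were 0.51 and -0.060. Rnaseh2c, a subunit of the ribonuclease H2 complex, which removes ribonucleotides from DNA, had 1550 in the homozygous, 1418 in the hemizygous and 1810 in the WT library. Its log2 ratios to WT were -0.22 ± 0.034 (counting SE) for homozygous and -0.35 ± 0.034 for hemizygous, and under sum scaling they were 0.34 and -0.15. Of the 522 deep genes, 8.43% differed by more between hemizygous and WT. The genes overlap others on the opposite strand: 24.8% of the exon bases of Rnaseh2c are shared with Kat5 and 12.7% of those of Rfc4 with Eif4a2, and without the strand setting such reads cannot be told apart.

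Cdca5 encodes sororin, which holds sister chromatids together after replication. It had 330 in the homozygous, 340 in the hemizygous and 364 in the WT library, which gave -0.14 ± 0.044 and -0.10 ± 0.042 against WT (log2, counting SE). As deposited both transgenic values were below WT, and sum scaling turned the ratios to 0.41 and 0.10. Cdca5 starts 27 bases from the start of Zfpl1, a zinc finger gene read in the other direction in the GRCm38 annotation. Zfpl1 had 147 in the homozygous, 169 in the hemizygous and 182 in the WT library, the same order. Its log2 ratios to WT were -0.31 ± 0.11 for homozygous and -0.11 ± 0.099 for hemizygous (counting SE). Mcm4 and Dbf4 also start close to a gene read the other way, at 466 and 134 bases. Prkdc, beside Mcm4, had 12.6 in the homozygous, 14.6 in the hemizygous and 10.8 in the WT library, and so lay above WT where Mcm4 lay below it. Slc25a40, beside Dbf4, had 27.8, 29.3 and 29.7 in that order of libraries, or -0.088 ± 0.12 and -0.016 ± 0.12 against WT (log2, counting SE).

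Across the 10 genes, Mcm4, Pold4, Cdca5 and E2f5 had their lowest value in the homozygous library, a middle value in the hemizygous and their highest in WT. Tfdp1 alone had the opposite order as deposited. Of the 972 genes that reached a value of 1 in a library, 20.3% had the first order and 13.3% the second. Under sum scaling all 10 genes were higher in the homozygous than in the hemizygous library, so none had the first order and 7 had the second. Pold4, Cdca5 and E2f5 kept the first order under scaling by nuclear genes, and under median of ratios it was Pold4 alone. Dbf4, Tfdp1 and Pola2 had the second order under both of these scalings. The shares of all genes above are as deposited, so the counts under other scalings have no background share beside them. Under sum scaling the median log2 ratio over all genes measured was 0.22 for hemizygous versus WT and 0.29 for homozygous versus hemizygous. The counts under sum scaling are therefore no result about the 10 genes. The interval of the log2 ratio excluded 0 for 6 of 10 genes for homozygous versus WT, 2 higher and 4 lower. It did so for 7 of 10 for hemizygous versus WT, 2 higher and 5 lower, and for 3 of 10, all higher, for homozygous versus hemizygous. Among the 522 deep genes it excluded 0 for 46.6%, 48.3% and 39.3%, so such intervals often exclude 0 at this depth. By direction the shares were 18.8% higher and 27.8% lower for homozygous versus WT, 24.9% and 23.4% for hemizygous versus WT, and 11.9% and 27.4% for homozygous versus hemizygous.

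Each scaling divides a library by 1 factor, so by construction it moved the ratios of all 10 genes together. Scaling to the same sum, which includes the mitochondrial mRNAs, lifted the median of all genes measured by 0.53 for homozygous versus WT, 0.20 for hemizygous versus WT and 0.34 for homozygous versus hemizygous. Under it all 10 genes were above 0 for homozygous versus WT, and their median of 0.50 stood beside 0.49 over all genes. Scaling by nuclear genes or by median of ratios moved the median of all genes by less than 0.1 in every comparison, and none of the 10 passed 2-fold under any scaling tried. Under sum scaling Cdk6 (0.96), Tfdp1 (0.71) and Pola2 (0.60) passed 1.5-fold for homozygous versus WT and Cdk6 (0.68) for hemizygous versus WT, where 38.6% and 11.2% of all genes measured did. Under the other scalings none of the 10 passed it.

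**Figure D4:**
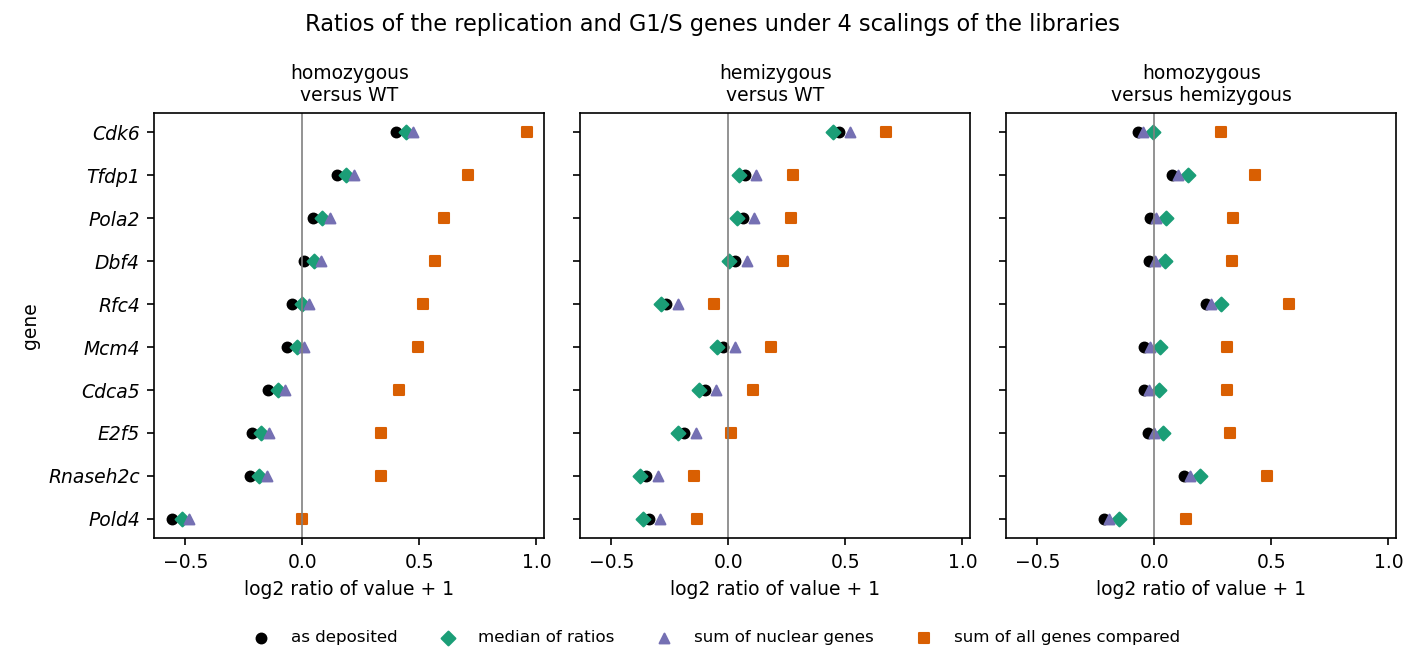
Log2 ratio of value + 1 of the 10 genes in 3 comparisons, as deposited and under 3 other scalings of the libraries (median of ratios, sum of nuclear genes, sum of all genes compared). Sum scaling over all genes shifts every gene to the right, with a median of 0.50 for homozygous versus WT. Each scaling divides a library by 1 factor, so the common shift and the nearly unchanged order of the genes follow from the arithmetic.

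Of 143 genes on wider lists of replication, nucleotide supply, G1/S, cohesion and mitosis genes, 15 lay where values could be read and the other 5 are given here. None of the 15, which include the 10 genes above, passed 2-fold in either direction in any comparison. Of the 522 deep genes, 0.77% did for homozygous versus WT, 0% for hemizygous versus WT and 0.38% for homozygous versus hemizygous. The count therefore lies near that background, though Cdc45 had too few fragments to be a deep gene. None of the 22 mitosis genes, Mki67 among them, could be read. Cdc45, which joins MCM in the moving helicase, had 25.2 in the homozygous, 19.2 in the hemizygous and 19.6 in the WT library, which is 0.35 ± 0.18 for homozygous versus WT (log2, counting SE). Donson, which takes part in assembling that helicase, had 72.3, 80.5 and 94.3 in the same order of libraries, with ratios to WT of -0.38 ± 0.094 and -0.23 ± 0.089. As deposited, Cdc45 and Donson lay on opposite sides of WT in the homozygous library, and under sum scaling their ratios were 0.88 and 0.17.

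The other genes of these lists were nucleotide and cohesion genes. Umps, the enzyme that makes UMP in pyrimidine synthesis, had 258 in the homozygous, 234 in the hemizygous and 227 in the WT library, and its homozygous versus WT ratio was 0.18 ± 0.037 on the log2 scale (counting SE). Gart, an enzyme of purine synthesis, had 90.5, 87.4 and 100.3 in that order, and its ratio for homozygous versus WT was -0.15 ± 0.13. Esco1, an acetyltransferase that secures cohesin on DNA, had 65.7, 68.6 and 79.1, with ratios to WT of -0.26 ± 0.089 and -0.20 ± 0.085. The signs of Gart and Esco1 for homozygous versus WT turned under sum scaling, to 0.41 and 0.29.

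Markers of other blood and liver cells differed between the same libraries, to varying extents. The 3 lymphoid markers that could be read (Igll1, Vpreb1 and Vpreb2, of 5) summed to 192 in the homozygous, 400.4 in the hemizygous and 517 in the WT library. The 4 erythroid markers (of 8) summed to 3285, 4012 and 3987, mostly Car2 and Tfrc, while Car1 lay the other way at 76.7 in the homozygous, 65.0 in the hemizygous and 64.7 in the WT library. In the same order of libraries, the vessel wall collagens Col4a1 and Col4a2 (2 of 4) summed to 99.3, 68.1 and 52.6. Ahsg, the 1 of 4 hepatocyte markers that could be read, was at 3.67, 3.49 and 3.70. Of the megakaryocyte markers (2 of 4), Gp5 had 30.1, 17.7 and 16.5 in that order, which is 0.83 ± 0.16 for homozygous versus WT (log2, counting SE), and Gp1bb had 4.76, 3.09 and 5.50. The myeloid markers Cebpd and Mmp8 (2 of 4) summed to 35.8, 39.7 and 45.6, and Runx1, the 1 of 5 blood stem cell markers that could be read, was at 132, 153 and 152. These marker values are as deposited. Under sum scaling the homozygous versus WT log2 ratio turned above 0 for the erythroid Car2 (0.26), Tfrc (0.22) and Cpox (0.45), Runx1 (0.36) and Cebpd (0.25). Ahsg and Gp1bb turned too, but they and Mmp8 had only an estimated 13.7 to 34.3 fragments in a library. Igll1 (-0.74), Vpreb1 (-1.04), Vpreb2 (-0.86) and Mmp8 (-0.37) stayed below 0. The part of cell makeup in the ratios of the replication and G1/S genes was not tested, and in such bulk RNA fewer cells of a type and less RNA per cell cannot be told apart. A share of cycling cells was not measured.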

How the data were processed

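RNA sequencing covered 3 libraries of fetal liver LSK cells, grouped by the genotype label. The authors deposited 1 FPKM value and a status per gene, per the file headers. The submitters' processing notes name TopHat2, Bowtie2, Cufflinks and build mm9 without versions. Gene annotation and strand setting: not given in the sources used here. Deposited FPKM summed far above what the unit allows, so all libraries were divided by 1 constant (the result is called value), and ratios stayed as deposited. For an identifier with several rows the highest with status OK was used. Of the 37899 identifiers with status OK in a library, 95.6% were found in GENCODE M21 (GRCm38), used for gene types, lengths and order.

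On each chromosome a break was placed where it best separated a start rich in high genes (protein-coding, mean FPKM of 200000 or more) from the rest. Segments needed a log likelihood gain of 5 and at least 20% high genes. Long gene families and constitutive genes were left out. FPKM times transcript length less 200 bases gave whole multiples of 1 unit, within 0.05, for 71.6%, 69.5% and 71.1% of low values in the homozygous, hemizygous and WT libraries (10% by chance). This unit was read as 1 fragment, with the median transcript length of a gene. Counting intervals are the log2 ratio ± 1.96 SE.

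Ratios are log2 of value + 1, which understates low genes, for genes that reached 1 in a library. No test was possible. Scripts (Python 3.11.15, numpy 2.4.6, pandas 2.3.3) were tested on simulated data. All 10 genes, and those of the wider lists that could be read, are named. Genes and lists were chosen with earlier results of these data known.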

Additional observations from a re-analysis of the deposited data

How the results depend on the processing

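No library could be left out and no paired analysis was possible because each genotype had 1 library. The count of replication and G1/S genes past 2-fold was 0 in all 3 comparisons. It stayed 0 under 3 other scalings, pseudocounts of 0.1 and none, and a 1.5-fold rule. The other settings were no minimum value, a minimum of 10, summed rows and all genes with status OK as background. They left the ratios of the 10 genes as they were, so they could not change this count. Sum scaling together with a 1.5-fold rule, a pair chosen after the values were seen, gave 3 for homozygous versus WT, 1 for hemizygous versus WT and 0 for homozygous versus hemizygous. The median log2 ratio moved beyond counting error only under sum scaling over the genes compared, to 0.50 for homozygous versus WT, 0.14 for hemizygous versus WT and 0.33 for homozygous versus hemizygous. Under that scaling 29 of 30 single ratios moved beyond their interval. The median without the 4 genes on chromosome 19 was -0.017, 0.0041 and -0.024 in the same order of comparisons, and with the 6 genes that overlap no protein-coding gene 0.026, 0.046 and -0.032.

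Of all genes measured, the count past 2-fold for homozygous versus WT was 43 as reported and 69 under sum scaling. With a pseudocount of 0.1 it was 61, 45 and 74 in the 3 comparisons, against 43, 27 and 44 as reported, and with a minimum of 10 it was 15, 5 and 12. Taking every gene with status OK gave 923, 1067 and 1093, most of them outside the segments. Fitting segments at 100000 deposited FPKM, a setting chosen after the values were seen, kept all 10 genes among 1450. At 500000 it left 794 genes compared and put Rfc4 outside. The longest transcript gave smaller counting errors: the median SE for homozygous versus WT was 0.033 against 0.060. The interval then also excluded 0 for Mcm4 (homozygous versus WT), Pola2 (hemizygous versus WT) and Pold4 and Cdk6 (homozygous versus hemizygous). Depth limits the ratio of Pold4 most, with 211 estimated fragments in the homozygous library.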
